A study of Mus musculus with 12 samples.

Results

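Distal stretches of the mouse genome that hold few measured CpGs and carried little DNA methylation in untreated leukaemia cells are described here. The genome was divided into 1000 bp tiles from position 1 of each autosome. A tile was taken when it held 3 to 9 CpGs that every one of the 12 libraries covered with 10 or more calls (both strands summed), lay more than 2 kb from the start and end of every protein-coding gene, and had a mean methylation under 20% in the 4 PBS libraries. This gave 4233 tiles of the 48515 distal tiles with 3 to 9 CpGs, and of 87020 tiles measured on the autosomes and X. The PBS values chose the tiles, so their low level in PBS is the rule and not a result. CD11b-positive against CD11b-negative is the comparison that the rule did not use, but tiles this low leave little room for a loss in it. Counts and differences against PBS use the same PBS values that chose the tiles, so they are descriptions and nothing is read from them.

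The data are reduced representation bisulfite sequencing of CMM cells, GFP-positive mouse leukaemia cells of the inv(16) type of acute myeloid leukaemia, engrafted intravenously in C57BL/6 mice. Once GFP-positive cells made up about 1% of blood cells, mice were given CpG-STAT3dODN or PBS intravenously, 3 times on alternate days. CpG-STAT3dODN is a CpG oligonucleotide, a ligand of the receptor TLR9, joined to a decoy of the STAT3 binding site. From spleens taken 1 day after the last dose, GFP-positive CD11b-positive cells and GFP-positive CD11b-negative cells of treated mice were sorted (the label of the second reads bulk CD11b-CMM cells, taken here as negative from the sort described), and all GFP-positive cells of PBS mice, with 4 libraries in each group. CD11b is a surface integrin of mature myeloid cells. PBS cells were not separated by CD11b, so treatment and the sort cannot be told apart in a comparison with PBS. All groups are cells of this leukaemia model, and no group of healthy cells was analysed here. Whether the 4 libraries of a group came from different mice is not given in the labels, so a p-value here speaks of the spread of these libraries alone, which may be technical. The libraries held 112650943 to 157221778 methylation calls, and the tiles had a median of 510 calls per library (lowest 30).

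Most CpGs of mammalian DNA outside CpG islands are methylated. Distal stretches with low methylation often overlap enhancers, where bound transcription factors go together with locally reduced methylation. In blood development such stretches change methylation as cells take on myeloid, lymphoid or erythroid identity, through DNMT1, DNMT3A and DNMT3B, which write the mark, and the TET enzymes, which oxidise it. No measure of factor binding or chromatin was used here, so whether a tile acts as an enhancer was not tested.

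The sequences of whole tiles are not shown, but 215 tiles held an annotated RefSeq promoter away from the ends of protein-coding genes (225 promoters, 126 of long non-coding RNAs and 99 alternative starts of protein-coding genes). Of these, 107 had at least 2 measured CpGs in the 300 bases printed per promoter (250 before to 50 after the start). The 2 with the largest gain in CD11b-positive over PBS and 1 that was low in all libraries are shown, to let a reader see how sparse the measured CpGs are, which are in capitals (RefSeq, GRCm38.p6, 5′ to 3′ on the gene's strand).
Gm32925: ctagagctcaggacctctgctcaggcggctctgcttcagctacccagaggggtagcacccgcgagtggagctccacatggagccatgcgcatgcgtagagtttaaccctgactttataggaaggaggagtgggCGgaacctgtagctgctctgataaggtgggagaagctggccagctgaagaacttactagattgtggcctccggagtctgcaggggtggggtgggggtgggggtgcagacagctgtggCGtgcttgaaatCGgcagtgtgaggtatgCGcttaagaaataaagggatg
4932438H23Rik: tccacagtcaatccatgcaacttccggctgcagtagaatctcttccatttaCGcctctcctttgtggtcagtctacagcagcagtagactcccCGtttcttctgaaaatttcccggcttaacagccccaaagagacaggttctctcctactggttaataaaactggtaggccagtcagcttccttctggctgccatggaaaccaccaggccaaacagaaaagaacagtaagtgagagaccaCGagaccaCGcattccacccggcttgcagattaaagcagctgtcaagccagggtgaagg
Gm36738: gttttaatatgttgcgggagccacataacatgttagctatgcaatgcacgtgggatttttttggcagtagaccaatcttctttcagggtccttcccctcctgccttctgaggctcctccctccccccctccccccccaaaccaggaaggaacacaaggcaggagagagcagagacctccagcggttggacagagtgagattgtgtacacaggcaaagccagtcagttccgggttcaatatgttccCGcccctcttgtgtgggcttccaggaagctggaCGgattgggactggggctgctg
The Gm32925 promoter, of a long non-coding RNA near Bach1, lies at chr16:87738354-87738653 on the plus strand. Its tile had 58.1, 83.7, 51.2 and 50.9% in CD11b-positive libraries 1 to 4, 29.4, 78.2, 19.4 and 16.2% in CD11b-negative and 6.66, 19, 12.7 and 15.04% in PBS. The alternative start of 4932438H23Rik lies at chr16:91069103-91069402 on the minus strand, in a tile with 42.3, 55.4, 43.6 and 43.1% in CD11b-positive, 27.3, 59.7, 22.7 and 21.9% in CD11b-negative and 9.86, 27.9, 17.5 and 23.9% in PBS. In both tiles all CD11b-positive libraries lay above all PBS libraries, and CD11b-negative library 2 was above at least 3 of the 4 CD11b-positive libraries. The start of Gm36738 near Rac2, a GTPase gene of blood cells, lies at chr15:78581540-78581839 on the minus strand, with 0.314% ± 0.427 in CD11b-positive, 0.0933% ± 0.187 in CD11b-negative and 0.174% ± 0.201 in PBS (SD, n = 4 each).

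Short motifs of blood transcription factors were searched on both strands of these promoters, as letters only. The RUNX core TGTGGT was found in 15.1% of the 225 promoters and in 16.8% of all 32851 RefSeq promoters of the same length. The PU.1 core GAGGAA was found in 33.8% against 28.3%, the GATA motif AGATAA in 12.4% against 11.2%, and the C/EBP motif TTGCGCAA in 0.889% (2 promoters) against 0.183%. No motif contains another on either strand, and a match is no evidence of binding.

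In position, the tiles were closer to genes than the other 44282 distal tiles with 3 to 9 CpGs, which had 20% or more methylation in PBS. Their median distance to the nearest end of a protein-coding gene was 13776 bp (quartiles 5561 and 35886 bp), against 26931 bp for the others (quartiles 9479 and 84515 bp). The share inside a protein-coding gene was alike, 49.0% against 50.5%; exons and introns were not used here. They held more CpGs in all, with a median of 17 CpGs listed in at least 1 library per tile, against 14. A RefSeq promoter lay in 5.08% of them, against 0.942% of the others. The nearest or host gene was a developmental homeobox, Sox, Fox, Tbx or related transcription factor gene for 191 tiles (4.51%), against 684 of the others (1.54%); this gene class was chosen after values were seen. These are descriptions, since PBS methylation chose the tiles. Tiles were spread over all 19 autosomes, from 6.57% of the distal CpG-poor tiles on chromosome 12 to 12.4% on chromosome 11.

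Low methylation extended to the neighbouring tiles. Of 1783 measured neighbours of members, counted once per member and side, 66.3% had a PBS mean under 20% (median 7.60%). Around the other distal tiles the share was 8.02% of 9462 (median 72.8%). Neighbours can themselves be members, which are under 20% by the rule, so part of this is the selection. At 5 kb before the tile the median PBS level was 20.7%, and at 10 kb 27.0%, against 57.9% and 54.7% around the other tiles. Within a tile the CpGs with the highest and lowest PBS level differed by a median of 8.28 points. Every CpG was under 20% in PBS in 2737 tiles (64.7%), and 124 tiles held a CpG at 50% or more.

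**Figure D1:**
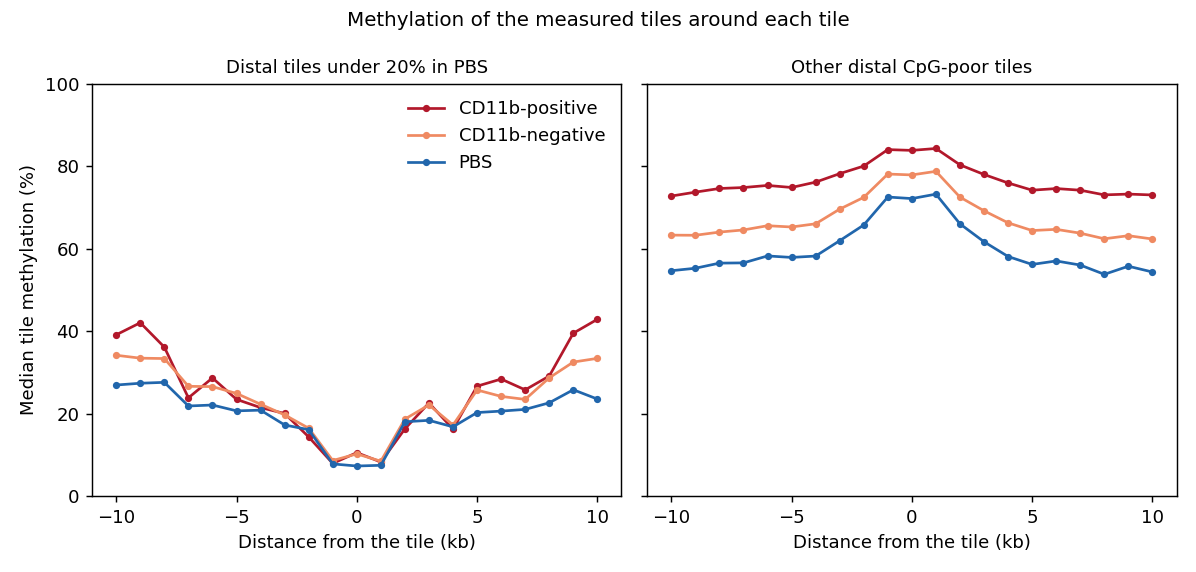
Median methylation (%) of the measured tiles at each distance (kb) from the distal tiles under 20% in PBS (left) and from the other distal CpG-poor tiles (right), for CD11b-positive, CD11b-negative and PBS group means. The tiles at a distance can themselves be distal tiles under 20% in PBS. The medians at distance 0 are 10.6% in CD11b-positive, 10.3% in CD11b-negative and 7.33% in PBS, those at 1 kb before the tile are 7.96, 8.66 and 7.83% in the same groups, and the medians are higher further out; the other tiles show no such trough.

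Across libraries the mean over the 4233 tiles was 17.1, 23.2, 15.99 and 15.9% in CD11b-positive libraries 1 to 4, 11.3, 22.7, 10.2 and 9.05% in CD11b-negative and 6.87, 9.68, 8.35 and 8.56% in PBS. Library 2 stood apart in both treated groups, and CD11b-negative library 2 was above 3 of the 4 CD11b-positive libraries. Group averages were 18.05% ± 3.46 in CD11b-positive, 13.3% ± 6.33 in CD11b-negative and 8.37% ± 1.16 in PBS (SD over libraries, n = 4 each). The medians were closer, 10.2 to 11.3% in CD11b-positive, 7.63 to 11.3% in CD11b-negative and 5.71 to 7.63% in PBS, because the spread came from the upper part of the distribution. Tiles at 50% or more numbered 146 to 797 per CD11b-positive library, 0 to 787 per CD11b-negative library and 0 in every PBS library.

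**Figure D2:**
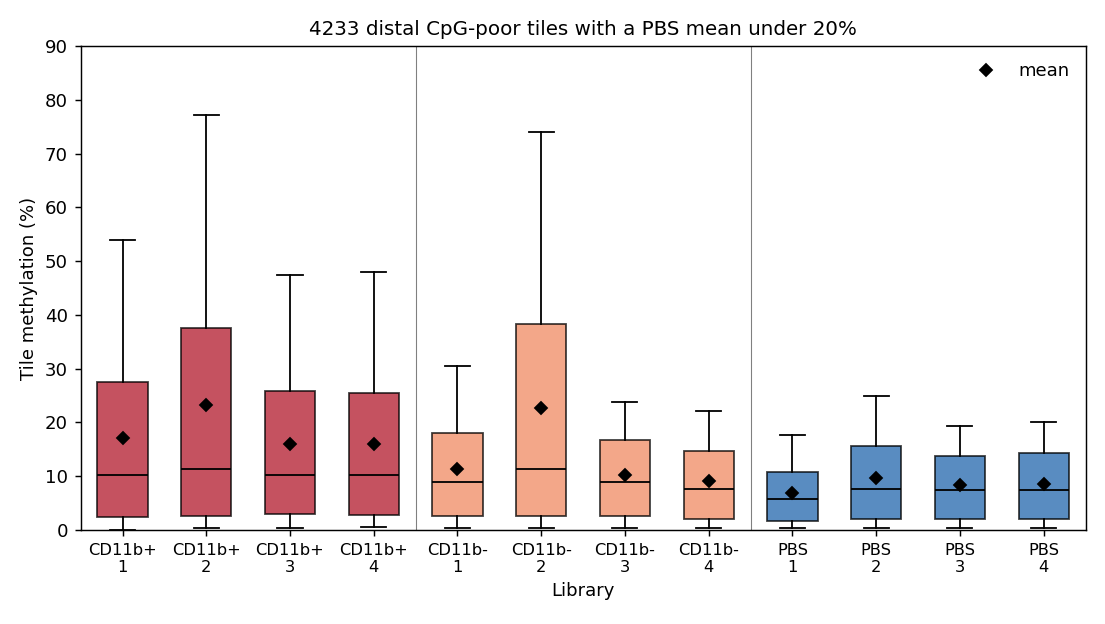
Methylation (%) of the 4233 tiles in each library; boxes span the quartiles with the median as a line, whiskers the 5th to 95th percentile, and diamonds are means. The upper quartiles reach 37.6% in CD11b-positive 2 and 38.4% in CD11b-negative 2, and stay at or under 15.7% in PBS.

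The calls on 8 genes of the Y chromosome, which the tiles do not include, moved with these levels. As calls per 1000000 autosomal calls they were 25.04, 41.3, 23.8 and 23.8 in CD11b-positive libraries 1 to 4, 12.9, 40.2, 11.1 and 8.64 in CD11b-negative and 5.52, 18.6, 8.25 and 11.04 in PBS. CD11b-positive lay above PBS in every library, and CD11b-negative 2 lay with CD11b-positive 2. The labels do not give the sex of the cells or the mice, so what the Y calls stand for was not tested, and their part in a difference between CD11b-positive and PBS cannot be told apart from the group. Counts from fits that also hold the Y calls as a covariate are given beside those without.

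**Figure D3:**
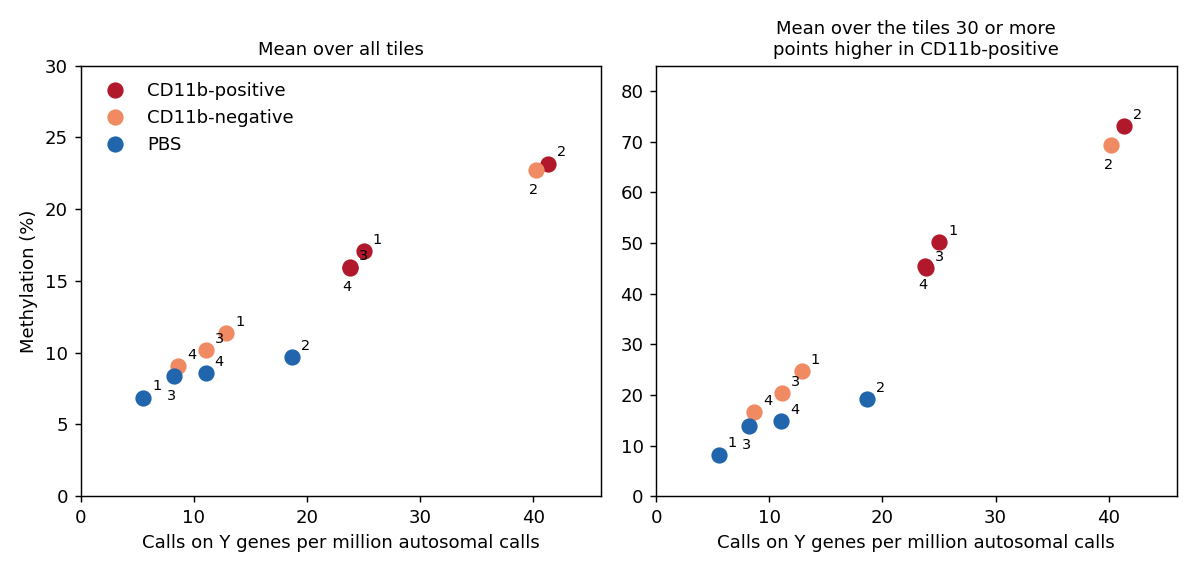
Mean methylation (%) of each library against its calls on Y genes per 1000000 autosomal calls, over all 4233 tiles (left) and over the 560 tiles that were at least 30 points higher in CD11b-positive than in PBS (right). CD11b-negative 2 and CD11b-positive 2 sit together at the upper right, the other CD11b-negative libraries sit near PBS.

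In the comparison of CD11b-positive with CD11b-negative treated cells, with libraries taken as unpaired, none of the 4233 tiles was called higher or lower (0 called, and 0% of all 87020 tiles called), where a tile was called if its adjusted p lay below 0.05 and its group means were 10 points or more apart. The quasi-binomial model gave 320 tiles (7.56%, against 10.9% of all tiles) an unadjusted p below 0.05, with adjusted values no lower than 0.386. edgeR's quasi-likelihood test called 0 and gave 253 tiles an unadjusted p below 0.05. Deviations from the group mean correlated at 0.926 between the treated libraries of number 2. For numbers 1, 3 and 4 the correlations were 0.159, 0.654 and 0.682, each slightly lower than with another number (0.211, 0.664 and 0.690). With the number as a block 650 tiles (15.4%) were called higher in CD11b-positive and 2 (0.0472%) lower. Over all tiles the same fit called 11.6% higher and 2.01% lower. Among the other distal tiles with 3 to 9 CpGs the shares were 15.8% and 0.8288%, and among the 3068 distal tiles with 10 or more CpGs and a PBS mean under 20% they were 1.66% and 0%. The labels do not state that a shared number marks 1 mouse. The correlations by number cannot show it, since library 2 shifts both group means.

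The unpaired result rested on CD11b-negative library 2. Without it, 942 tiles were called higher and 12 lower (22.5% in either direction; 20.4% of all tiles), and 622 of these were among the 650 called higher with the block (95.7% of the 650 and 66.0% of the 942). Without library 2 of both groups the counts were 944 and 9 (22.5%, against 20.4% of all tiles). With all libraries kept and the Y calls as a covariate they were 0 and 0, against 0.116% of all tiles called in either direction. All 4 CD11b-positive libraries lay above all 4 CD11b-negative libraries in 59 tiles (1.39%; 1.99% of all tiles) and below them in 28 (0.661%; 0.583% of all tiles). Within numbered pairs, CD11b-positive was higher in all 4 pairs in 1115 tiles (26.3%; 33.8% of all tiles) and lower in all 4 in 255 (6.02%; 6.13% of all tiles). The median difference was 1.07 points over these tiles and 2.18 over all tiles. It was 1.94 without CD11b-negative 2, 0.648 without CD11b-negative 4 and 0.640 without CD11b-positive 2. By pair, the median difference was 1.41, 0.120, 1.53 and 1.88 points in pairs 1 to 4, so pair 2 differed least.

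The largest gains whose libraries did not overlap were inside genes. In Nol4l (chr2:153455001-153456000 of mm10, 47540 bp from the nearest gene end, 4 CpGs) the tile had 44.2, 65.6, 54.1 and 57.9% in CD11b-positive libraries 1 to 4, 8.12, 38.7, 26.01 and 12.1% in CD11b-negative and 8.47, 8.88, 11.5 and 11.6% in PBS. All CD11b-positive libraries were above all CD11b-negative libraries, of which library 2 was the highest. The means were 55.5% ± 8.94 in CD11b-positive and 21.2% ± 14.0 in CD11b-negative (SD, n = 4 each), a difference of 34.2 points that was not called unpaired (quasi-binomial adjusted p = 0.386) and was called with the block (34.8 points, adjusted p = 0.00183, higher in 4 of 4 pairs). In Btbd9 (chr17:30347001-30348000, 6 CpGs) the values were 30.2, 55.5, 33.9 and 39.2% in CD11b-positive, 12.9, 28.1, 7.94 and 9.46% in CD11b-negative and 1.58, 3.09, 3.82 and 6.52% in PBS. In Lhfpl2 (chr13:94077001-94078000, 5 CpGs) they were 38.3, 49.3, 42.8 and 46.2% in CD11b-positive, 17.4, 30.3, 20.4 and 13.6% in CD11b-negative and 17.6, 17.9, 10.8 and 14.8% in PBS. Both rose in CD11b-positive with the block, by 24.9 points (adjusted p = 0.00145) in Btbd9 and 23.9 points (adjusted p = 0.00394) in Lhfpl2, and neither was called unpaired. Pik3c2b, the gene of a class II phosphoinositide 3-kinase (chr1:133084001-133085000, 3 CpGs), had 36.7, 33.1, 35.1 and 47.1% in CD11b-positive, 15.02, 20.7, 20.2 and 14.2% in CD11b-negative and 10.5, 7.69, 12.4 and 12.7% in PBS. Its libraries did not overlap between the treated groups, and the quasi-binomial model with the block gave 20.8 points (adjusted p = 0.0115). Tiles in Mrvi1, whose product is a target of cyclic GMP signalling, and Dhx57, a helicase gene, differed by 19.6 and 17.4 points and were also called with the block only (adjusted p = 0.00420 and 0.0169).

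Single CpGs within these tiles differed in the same direction. The tiles were chosen for their differences, and CpGs close together can be read on the same molecules, so this is no separate evidence. In Nol4l the 4 CpGs lie at positions 359, 397, 403 and 429 of the tile and averaged 50.2 to 59.1% in CD11b-positive, 16.4 to 27.3% in CD11b-negative and 6.31 to 16.1% in PBS, each with 58 or more calls per library. In Btbd9 the 6 CpGs averaged 31.0 to 46.7% in CD11b-positive, 9.10 to 21.5% in CD11b-negative and 1.93 to 5.94% in PBS. In Lhfpl2 the 5 CpGs averaged 35.6 to 54.4% in CD11b-positive, 16.0 to 32.9% in CD11b-negative and 8.38 to 26.3% in PBS. The CpG with the highest PBS level in Lhfpl2 was also the highest in both treated groups. In Pik3c2b the 3 CpGs averaged 31.1 to 43.4% in CD11b-positive, 10.99 to 21.9% in CD11b-negative and 3.54 to 16.4% in PBS.

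Ranked by the fit with the block (a choice added after values were seen), the largest called gains were near or in Kif11, a mitotic kinesin gene, Ehd1, an endocytic recycling gene, 9530068E07Rik, Rapgef2, the gene of an activator of the GTPase Rap1, Sipa1l3 and Nol4l. The Kif11 tile (chr19:37381001-37382000) had 46.9, 73.5, 57.7 and 42.6% in CD11b-positive libraries 1 to 4, 10.1, 49.6, 10.1 and 2.899% in CD11b-negative and 3.27, 8.01, 11.01 and 10.1% in PBS, with a difference under the block of 39.96 points (adjusted p = 0.00206). CD11b-negative library 2 overlapped the CD11b-positive libraries there. The Ehd1 tile (chr19:6284001-6285000) had 59.7, 78.6, 53.1 and 53.4% in CD11b-positive, 10.8, 70.6, 17.4 and 8.301% in CD11b-negative and 1.51, 10.8, 8.496 and 7.39% in PBS (34.95 points, adjusted p = 0.00385). In both tiles pair 2 had the smallest difference of the 4 pairs.

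Losses were smaller, but tiles this low leave little room for them. The median CD11b-negative level over the tiles was 10.3%, and a tile under 10% there cannot lose 10 points. The largest losses without overlap included tiles in or near Hhipl1, Sorcs2, Gse1, Snx10, a sorting nexin gene, and Csgalnact1, a chondroitin sulphate enzyme gene. Their differences were -10.6 to -5.03 points. None of these 5 was called, unpaired or with the block (adjusted p = 0.0844 to 0.238 with the block), and in Csgalnact1 the sign changed when the CpGs of the tile were weighted equally (2.76 points). Snx10 (chr6:51603001-51604000) had 2.78, 3.78, 6.404 and 4.02% in CD11b-positive, 9.88, 8.98, 10.7 and 11.9% in CD11b-negative and 7.21, 6.79, 10.2 and 8.97% in PBS. Gse1 (chr8:120335001-120336000) had 3.91, 5, 5.43 and 4.86% in CD11b-positive, 13.3, 6.84, 9.52 and 15.7% in CD11b-negative and 13.5, 7.84, 15.5 and 9.45% in PBS, so its CD11b-negative and PBS libraries overlapped and its CD11b-positive libraries were all lower. The 2 tiles called lower with the block lay near Depdc1b and in Tead1, a transcription factor gene of the Hippo pathway. The Tead1 tile (chr7:112860001-112861000) had 6.84, 1.06, 8.76 and 11.8% in CD11b-positive, 22.2, 2.21, 18.4 and 32.3% in CD11b-negative and 20.5, 12.6, 19.1 and 22.01% in PBS, a block difference of -11.2 points (adjusted p = 0.0330) that changed sign with the Y calls as a covariate (3.07 points, adjusted p = 0.912).

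**Figure D4:**
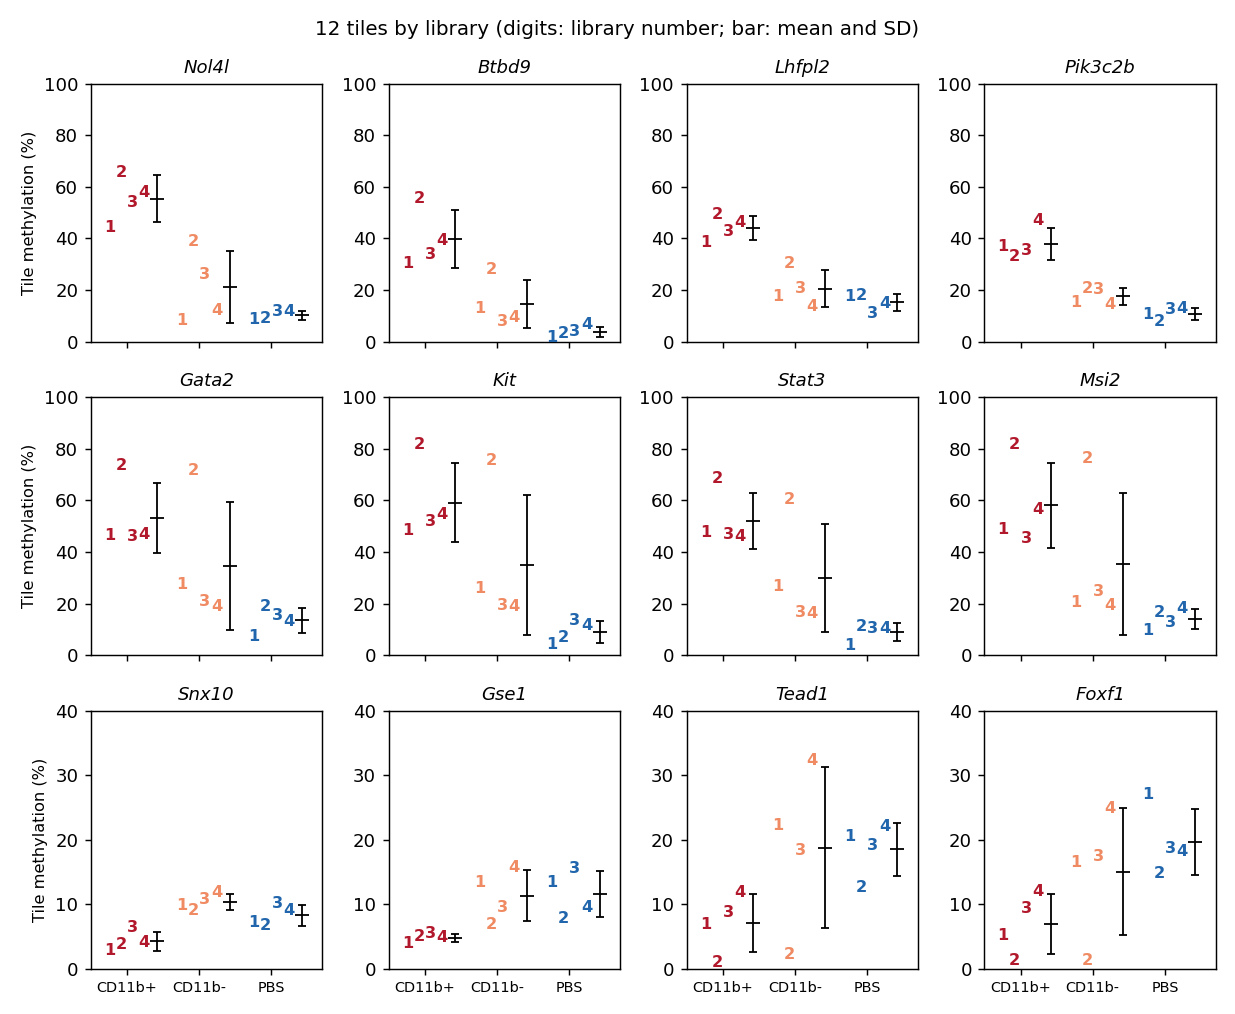
Methylation (%) of 12 tiles in each library (digits are library numbers) with the group mean and SD (n = 4); top row the largest gains without overlap, middle row the tiles of Gata2, Kit, Stat3 and Msi2 with the largest difference of CD11b-positive from PBS, bottom row losses. In the middle row CD11b-negative 2 sits with CD11b-positive and the other CD11b-negative libraries sit between CD11b-positive and PBS. The Msi2 tile plotted is not the one whose values the text gives. The bottom row has a shorter axis.

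Set beside PBS, whose values chose the tiles, the mean level was 9.68 points higher in CD11b-positive and 4.96 points higher in CD11b-negative, while the medians of the differences were 2.78 and 1.66 points (5.0 and 2.53 over all tiles). When PBS 1 and 2 chose the tiles and PBS 3 and 4 were the comparison, the medians were 2.83 and 1.67 points; with the pairs of PBS libraries exchanged they were 2.89 and 1.81. The fit over all tiles called 1381 of them higher in CD11b-positive than PBS (32.6%; 32.5% of all tiles) and 15 lower (0.354%; 3.76% of all tiles); the rule favours higher calls and puts a loss of 10 points out of reach for the 2501 tiles with a PBS mean under 10%. With the Y calls as a covariate 62 were called higher and 0 lower (1.46%; 0.133% of all tiles). No tile was called between CD11b-negative and PBS (0% of all tiles), and edgeR's quasi-likelihood test also called 0. In that comparison 54 were called higher and 0 lower with the Y calls as a covariate (1.28%, against 0.114% of all tiles). CD11b-positive lay above PBS without overlap in 1805 tiles (42.6%; 50.3% of all tiles) and below it in 181 (4.28%; 5.88% of all tiles). CD11b-negative lay above PBS without overlap in 465 (10.99%; 10.2% of all tiles) and below it in 21 (0.496%; 0.393% of all tiles). Without CD11b-negative 2 the median difference of CD11b-negative from PBS was 0.674 points. The treated groups share the same PBS libraries.

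**Figure D5:**
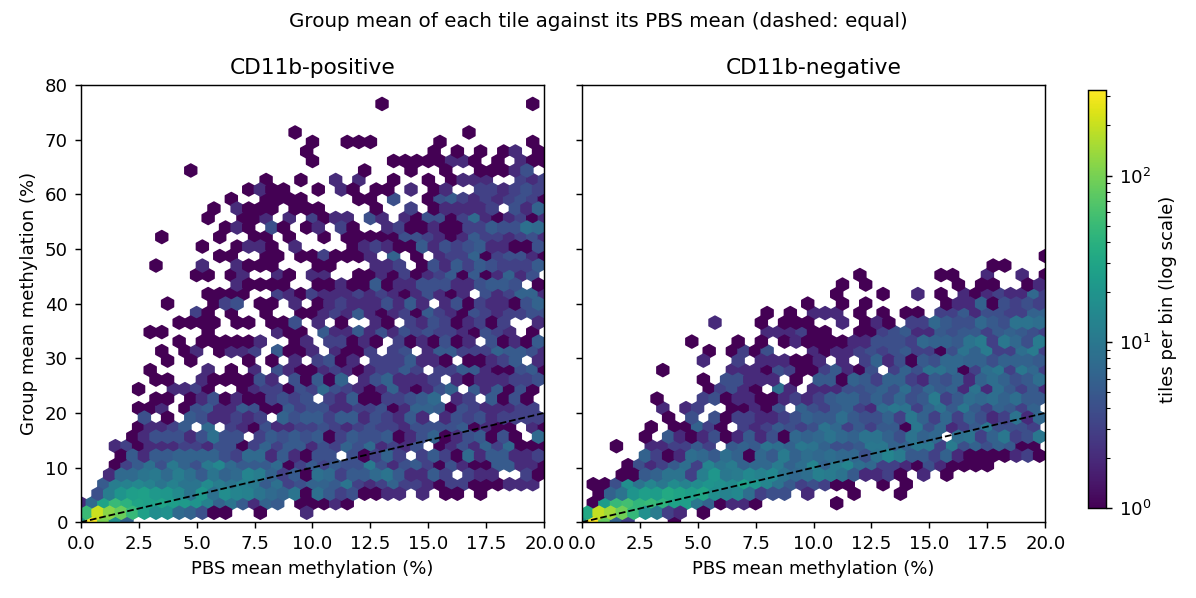
Group mean methylation (%) of each of the 4233 tiles in CD11b-positive (left) and CD11b-negative (right) against its PBS mean (%), coloured by the number of tiles per bin (log scale); the dashed line marks equal values. Tiles near 0 in PBS stay near the line, and the spread above it widens with the PBS mean and is wider for CD11b-positive.

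The tiles fell into a part that stayed low and a part that did not. Under 5% in all 12 libraries were 974 tiles (23.0%), and under 20% in all 12 were 2286 (54.0%). At least 30 points higher in CD11b-positive than in PBS were 560 (13.2%), against 3946 of all 87020 tiles and 2615 of the 44282 other distal CpG-poor tiles. Choosing tiles low in PBS favours such gains. The share that gained 30 points was larger in classes of higher PBS level. This is a description only, since the PBS values that chose the tiles also set the classes and enter the gain. Of 637 tiles with a PBS mean under 1%, 0 gained 30 points, of 1050 with 1% to 5% 9 did (0.857%), of 814 with 5% to 10% 111 did (13.6%), and of 1732 with 10% to 20% 440 did (25.4%). The median CD11b-positive level in these classes was 0.733, 3.77, 12.6 and 30.4%, that in CD11b-negative 0.7104, 3.53, 10.1 and 22.8%, and that in PBS 0.601, 2.48, 7.20 and 15.3%. The share was smaller with more measured CpGs, with 19.8% gaining 30 points among the tiles with 3 CpGs, 13.1% with 4 to 6 and 4.96% with 7 to 9. Their median PBS level fell likewise, at 9.60, 7.65 and 4.58%, so the number of CpGs and the PBS level were not separated here.

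The tiles that gained and those that stayed low differed in surroundings. The 560 with a gain of 30 points had a median of 13 listed CpGs, 57.5% lay inside genes, and the 103 measured tiles next to them had a median PBS level of 40.7%. The 974 under 5% throughout had 21 listed CpGs, 48.7% lay inside genes, and the 580 neighbours had a median PBS level of 0.914%. A RefSeq promoter lay in 1.07% of the gaining tiles and in 10.5% of the constantly low ones. Developmental transcription factor genes were host or nearest for 1.25% of the gaining tiles, 2.36% of those under 5% throughout and 5.73% of those under 20% throughout. No test was made of these differences, since the measured levels define both sets. Neighbours were counted once per tile and side, and can themselves belong to the 4233 tiles.

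Over the 560 gaining tiles the library means were 50.2, 73.1, 45.05 and 45.5% in CD11b-positive, 24.7, 69.3, 20.4 and 16.6% in CD11b-negative and 8.23, 19.1, 13.9 and 14.8% in PBS. PBS 2, the PBS library with the most Y calls, was the highest PBS library in 428 of them (76.4%), against 41.4% of all 4233. CD11b-negative 2 lay within the CD11b-positive range, CD11b-negative 1 and 3 just above PBS 2, and CD11b-negative 4 below PBS 2.

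The largest gains over PBS without overlap included tiles in Tbxas1, the gene of thromboxane synthase, Parp14, an interferon-induced ADP-ribosyltransferase gene, near Phc1, a Polycomb gene, and in Metap1d and Tbc1d8. The Tbxas1 tile (chr6:38921001-38922000, 44670 bp from the nearest gene end, 3 CpGs) had 82.5, 90.2, 64.3 and 65.4% in CD11b-positive libraries 1 to 4, 32.5, 90.2, 23.5 and 20.1% in CD11b-negative and 6.47, 18.7, 13.8 and 13.04% in PBS. The Parp14 tile (chr16:35857001-35858000, 8 CpGs) had 69.6, 81.9, 60.7 and 71.1% in CD11b-positive, 34.2, 75.1, 19.6 and 24.5% in CD11b-negative and 7.69, 8.88, 13 and 7.08% in PBS. In both tiles CD11b-negative 2 reached the CD11b-positive range, and the other CD11b-negative libraries lay between the 2 groups. The differences from PBS in the 5 named tiles were 58.0 to 62.6 points.

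The 6 largest gains of CD11b-negative over PBS without overlap are a description, since PBS values chose the tiles. The fit without covariates called none of them. Tbc1d8 was also among the largest gains of CD11b-positive over PBS. Rbpms, an RNA-binding protein gene (chr8:33917001-33918000, 48 to 842 calls), had 51.4, 65.9, 37.6 and 41.1% in CD11b-positive, 56.2, 63.6, 25.7 and 38.5% in CD11b-negative and 8.61, 15.7, 9.92 and 14.3% in PBS, so the treated groups overlapped and both lay above PBS. Ikzf2, the gene of the lymphoid transcription factor Helios (chr1:69545001-69546000), had 60.6, 76.3, 57.7 and 55.3% in CD11b-positive, 38.2, 72.9, 22.6 and 23.2% in CD11b-negative and 3.05, 10.9, 8.68 and 9.42% in PBS. The tile near Abca1, a cholesterol exporter gene (chr4:53246001-53247000), had 62.2, 85.8, 61.2 and 67.97% in CD11b-positive, 41.9, 81.7, 21.4 and 26.8% in CD11b-negative and 6.84, 15.96, 13.04 and 13.7% in PBS. In each of the 3 the CD11b-negative libraries lay above all PBS libraries. Tiles in Tbc1d8, Slc14a2 and Zfpm1 had the other large gains, and the 6 differences of CD11b-negative from PBS ran from 30.6 to 33.9 points. Without CD11b-negative 2 they were 28.1 points in Rbpms, 20.01 in Tbc1d8, 19.96 in Ikzf2, 18.7 in Slc14a2, 18.6 in Zfpm1 and 17.7 near Abca1.

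Of the largest losses from PBS without overlap, 1 tile lay near a forkhead gene and 1 in a Wnt pathway gene. The tile near Foxf1, a mesenchymal forkhead gene (chr8:121021001-121022000, 62386 bp away, 7 CpGs), had 5.22, 1.32, 9.31 and 12.1% in CD11b-positive, 16.5, 1.37, 17.4 and 24.9% in CD11b-negative and 26.96, 14.7, 18.7 and 18.3% in PBS. The tile in Tcf7l2, a Wnt pathway transcription factor gene (chr19:55744001-55745000, 8 CpGs), had 1.98, 2.37, 13.1 and 10.1% in CD11b-positive, 20.3, 3.87, 21.1 and 18.9% in CD11b-negative and 19.9, 18.1, 20.2 and 19.3% in PBS. In both, library 2 of each treated group was the lowest or nearly the lowest, and the other CD11b-negative libraries overlapped PBS or came close to it. In Zfp462 the difference was -12.1 points, and with the Y calls as a covariate 1.13 points. Between CD11b-negative and PBS the 3 largest losses without overlap, in Zmiz1, near Ier3 and in Ezr, were -5.15 to -4.04 points. Of the 181 tiles lower than PBS without overlap in CD11b-positive, 10 (5.52%) had a developmental transcription factor gene as host or nearest gene, against 52 (2.88%) of the 1805 that were higher and 4.51% of all 4233.

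By nearest or host gene, 56 tiles lay near 23 of the 43 listed genes of haematopoietic stem cells and leukaemia, the longest list, and were 56 of its 398 distal CpG-poor tiles. With the block 14 of the 56 were called higher in CD11b-positive than CD11b-negative and 0 lower (15.4% higher among all 4233 tiles and 11.6% among all tiles), and 14 were under 5% in all libraries. Their median difference was 0.412 points, against 1.07 over all 4233 tiles. All 4 tiles in Msi2, the gene of an RNA-binding protein of stem cells, were called higher with the block, by 11.5 to 29.7 points (adjusted p = 0.00799 to 0.0186). Of these, the tile at chr11:88468001-88469000 (7 CpGs) had 48.2, 63.9, 40.8 and 45.9% in CD11b-positive libraries 1 to 4, 7.75, 58.9, 22.4 and 8.198% in CD11b-negative and 3.11, 9.62, 7.898 and 6.77% in PBS. CD11b-negative 2 lay in the CD11b-positive range and CD11b-negative 1 and 4 lay in the PBS range.

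At other genes of this list, called tiles lay beside tiles that were not called. Kit, the stem cell factor receptor gene, had a tile 33014 bp from its nearest end (chr5:75608001-75609000) with 48.4, 81.8, 51.99 and 54.5% in CD11b-positive, 26, 75.4, 19.2 and 18.96% in CD11b-negative and 4.21, 6.86, 13.6 and 11.4% in PBS (block difference 24.9 points, adjusted p = 0.00420). Its tile 3014 bp from the end had 5.88% ± 3.17 in CD11b-positive, 5.78% ± 1.28 in CD11b-negative and 3.698% ± 1.204 in PBS (SD, n = 4 each). The tile outside Gata2, a stem cell transcription factor gene (chr6:88190001-88191000, 2891 bp away, 7 CpGs with 1493 to 3014 calls), had 46.4, 73.7, 45.9 and 46.8% in CD11b-positive, 27.3, 71.4, 20.9 and 18.9% in CD11b-negative and 7.36, 18.9, 15.2 and 13.01% in PBS (19.4 points with the block, adjusted p = 0.00497). Beyond Myc, 2 tiles 198640 and 230640 bp away rose with the block by 22 and 28.8 points (adjusted p = 0.0107 and 0.00796), while the tile 46640 bp away held at most 1.82% in any library. Near Lmo2 the tile 61903 bp away had 34.5, 34.7, 32.2 and 37.8% in CD11b-positive, 26.98, 20.4, 21.2 and 18.9% in CD11b-negative and 16.99, 14.9, 18.4 and 15.7% in PBS, without overlap between the treated groups and with library 2 of both groups inside the range of the other libraries (13.5 points with the block, adjusted p = 0.0173). The 5 tiles around Meis1, a homeobox gene of stem cells, were at 1.60 to 13.5% in CD11b-positive, 1.95 to 19.4% in CD11b-negative and 1.78 to 16.3% in PBS, and none was called.

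Near genes of STAT3 signalling, the pathway that the decoy addresses, lay 27 of 108 distal CpG-poor tiles, by 17 of 31 genes, and 5 of the 27 were called higher with the block and 0 lower (15.4% higher among all 4233 tiles). In Stat3 itself the tile 4195 bp from the gene end (chr11:100891001-100892000, 5 CpGs) had 47.4, 68.3, 46.8 and 45.9% in CD11b-positive, 26.7, 60.3, 16.4 and 16.2% in CD11b-negative and 3.73, 11.2, 10.5 and 10.3% in PBS, a block difference of 22.9 points (adjusted p = 0.00483). The tile 6195 bp from the end held 2.704% ± 1.96 in CD11b-positive, 1.64% ± 1.23 in CD11b-negative and 0.839% ± 0.625 in PBS (SD, n = 4 each). Bcl2l1, a survival gene, had 59.4, 66.2, 44.4 and 40.03% in CD11b-positive, 11.7, 72.8, 18.5 and 10% in CD11b-negative and 7.38, 24.2, 16.5 and 20.95% in PBS (26.1 points with the block, adjusted p = 0.0193), but the difference within pair 2 had the other sign. Around Vegfa, an angiogenic growth factor gene, 3 of 4 tiles were called higher with the block. A tile 34079 bp from Socs3, a feedback inhibitor of STAT3, had 7.19, 1.34, 7.34 and 7.06% in CD11b-positive, 11.5, 1.54, 13.5 and 15.1% in CD11b-negative and 19.2, 9.55, 12.2 and 10.5% in PBS and was not called, since its block difference was -4.69 points. TLR9 and NF-kB signalling genes had 9 tiles, of which 1 was called higher with the block, near Nfkb1 (17.5 points, adjusted p = 0.0344).

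Among monocyte and macrophage genes 16 tiles lay near 6 of 28 genes, and 1 was called higher with the block (against 15.4% of all 4233 tiles), 39569 bp from Cebpb, a myeloid transcription factor gene. It had 54.3, 76.7, 41.3 and 39.3% in CD11b-positive, 24.3, 76.6, 17.4 and 16.5% in CD11b-negative and 6.696, 22.5, 12.3 and 15.8% in PBS (19.3 points, adjusted p = 0.0170). Around Irf8, the gene of a transcription factor of monocytes and dendritic cells, the tile inside the gene (chr8:120742001-120743000, 33 to 117 calls) had 62.7, 58.4, 36.2 and 37.6% in CD11b-positive, 18.2, 57.8, 28.4 and 19.1% in CD11b-negative and 2.11, 20, 28.99 and 12.7% in PBS. The CD11b-negative libraries overlapped both other groups, and CD11b-positive lay above PBS without overlap. None of the 4 Irf8 tiles was called between the treated groups, unpaired or with the block. The tile near Itgam, which encodes CD11b, was low in all groups, at 4.36% ± 2.46 in CD11b-positive, 4.46% ± 1.19 in CD11b-negative and 4.595% ± 1.44 in PBS (SD, n = 4 each). That near Spi1, the gene of PU.1, averaged 1.27% ± 2.04 in CD11b-positive, 1.42% ± 2.15 in CD11b-negative and 0.672% ± 0.467 in PBS. No tile lay near a listed neutrophil gene.

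The lists of other cell types held fewer tiles, and the genes of those cell types are grouped here by position only. Called higher with the block were 5 of 16 tiles near erythroid and megakaryocyte genes, 3 of 9 near B cell genes, 2 of 17 near T and NK cell genes, 1 of 11 near dendritic cell genes, and 2 of 9 near stromal and endothelial genes, counts to be read against 15.4% of all 4233 tiles and 11.6% of all tiles. Of tiles near interferon-stimulated genes 1 of 3 was called, of the 1 near an antigen presentation gene (Psmb9) 0, and of 5 near housekeeping genes 0; none of these lists had a tile called lower. The erythroid cofactor gene Zfpm1 had 2 of these called tiles. The tile 27145 bp inside it (chr8:122309001-122310000, 9 CpGs) had 47.2, 72.9, 44.4 and 48.7% in CD11b-positive, 18.2, 63.98, 22.1 and 17.04% in CD11b-negative and 2.03, 11.5, 9.99 and 10.1% in PBS. The tile outside its end at 5139 bp held 1.63% ± 0.279 in CD11b-positive, 1.78% ± 0.640 in CD11b-negative and 1.86% ± 0.459 in PBS (SD, n = 4 each). In Kdr, an endothelial receptor gene, a tile had 43.3, 86.04, 47.9 and 54% in CD11b-positive, 34.3, 79.3, 21.6 and 19.96% in CD11b-negative and 6.73, 15.3, 9.85 and 9.67% in PBS (18.8 points with the block, adjusted p = 0.00909), and its difference changed sign with the Y calls as a covariate (-2.87 points).

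The tiles had 2943 genes as host or nearest gene, 2108 of them with 1 tile and 48 with at least 5. Septin9, a cytoskeletal gene, had the most, 12 of its 44 distal CpG-poor tiles, with medians of 8.32% in CD11b-positive, 5.65% in CD11b-negative and 5.04% in PBS. Gse1 had 11 of 67, with medians of 8.89% in CD11b-positive, 12.4% in CD11b-negative and 11.6% in PBS. Pax2, a kidney and brain transcription factor gene, had 9 of 21. The highest tile mean, taken in each group separately, was 14.8% in CD11b-positive, 13.01% in CD11b-negative and 12.8% in PBS. At Hoxb9 and Nkx2-2 nearly all distal CpG-poor tiles were low in PBS, 6 of 7 each. At Msx1 and Mef2c, with 6 tiles each, the medians were 11.7 and 4.27% in CD11b-positive, 13.9 and 5.07% in CD11b-negative and 15.5 and 5.91% in PBS, and 0 of their tiles gained 30 points.

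The lowest tiles with at least 9 CpGs were near Slc17a5 and Slc38a10, which encode membrane transporters, and in Epc1, with no library above 1.43%. At the 20% limit the 3 tiles just inside, near Lrig1 and in Il34 and Rasal1, each had a PBS mean of 19.99%, and the 3 just outside, near Atrnl1 and Mat2b and in Dchs1, had at most 20.01%. In Il34, the gene of a macrophage growth factor, the values were 42.3, 62.7, 41.4 and 40.99% in CD11b-positive, 20.3, 63.2, 24.6 and 19.4% in CD11b-negative and 12.8, 24.9, 21.7 and 20.6% in PBS, and in Dchs1 55.8, 69.1, 46.4 and 41.1% in CD11b-positive, 22.9, 48.8, 28.05 and 17.2% in CD11b-negative and 14.8, 25.95, 14.7 and 24.5% in PBS, so tiles on both sides of the limit held PBS libraries above and below 20%.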

How the data were processed

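Reduced representation bisulfite sequencing gave counts of methylated and unmethylated calls per CpG and strand in 12 libraries, deposited by the authors as raw counts. Bismark, methylKit 1.20.0, cutadapt 2.7 and Trim Galore 0.6.4, with build mm10 are named in the submitters' processing notes; the order of these steps is not given in the sources used here. Bisulfite conversion efficiency was not analysed here, and sequencing duplicates cannot be told from separate molecules, so counts overstate the number of independent molecules.

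Calls of both strands were summed per CpG. Of 13202122 CpGs listed, the 1052856 with at least 10 calls in every library were kept and summed over 1000 bp tiles with at least 3 CpGs. Genes, promoters and their sequences are from RefSeq (GRCm38.p6, the same coordinates as mm10), and distances are to the nearest end of a protein-coding gene, since the gene table used here gives no strand. A quasi-binomial logistic model was fitted per tile to the 8 libraries of each comparison, with the Pearson dispersion moderated across tiles in classes of mean methylation bounded at 5, 20, 80 and 95% (the approach of limma) and held at 1 or more. P-values were adjusted by Benjamini-Hochberg over all 87020 tiles, and tiles with an adjusted p below 0.05 and at least 10 points between group means were called. edgeR 4.0.16 (R 4.3.3) was an alternative, and the model was tested on simulated data. Other computations used Python 3.11.15, numpy 2.4.6, scipy 1.17.1 and pandas 2.3.3.

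Libraries were grouped by their labels. Same-numbered CD11b-positive and CD11b-negative libraries passed the limit of 0.1 set for this check. Their deviations from the group means correlated at 0.159, 0.926, 0.654 and 0.682. Library 2 stood apart in both treated groups and shifts both group means. The other libraries then deviate alike whatever their number, so passing the limit does not show a pairing. The labels do not state such a pairing, and numbers 1, 3 and 4 each correlated slightly more with another number. The tiles and the 13 gene lists were chosen with earlier results of these data known. Named tiles were, between CD11b-positive and CD11b-negative, the 6 strongest increases and 6 strongest decreases among tiles whose groups did not overlap, since none was called, and against PBS 6 increases and 3 decreases chosen likewise; some of these are not reported here. Further rules named the tile with the largest difference in each gene list, the 3 on each side of the 20% limit and the 3 lowest. Added after values were seen were the 7 tiles with the largest calls in the fit with the block, other tiles of the lists, the promoters and the developmental gene class. Alternatives were the block, the Y calls as a covariate, other call minimums, shifted tiles, a limit of 10% in PBS, leaving out each library, and edgeR.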

Additional observations from a re-analysis of the deposited data

Results flagged for a closer look

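Of 174 groups of 4 libraries examined with Dixon's test, 26 held a library far from the other 3; chance flags about 1 in 20 groups. The groups share libraries and tiles, so the flags are not independent.

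CD11b-negative 2 was the flagged library in 15 of the 26, being the highest in 12 and the lowest in 3. Its mean over the 4233 tiles was 22.7%, and among single tiles it stood highest in Metap1d with 77.7%, Slc14a2 with 73.6%, Cebpb with 76.6%, Id2 with 76.1%, Zfpm1 (tile at 122309001) with 64.0%, Bcl2l1 with 72.8% and Il34 with 63.2%. It was also the highest in Kif11 with 49.6%, Ehd1 with 70.6%, 9530068E07Rik with 70.6% and, near 0, Slc38a10 with 0.893%. It was the lowest in Tcf7l2 with 3.87%, Ywhaz with 3.56% and Depdc1b with 7.69%.

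CD11b-positive 2 was the highest of its group in its mean with 23.2% and its median with 11.3%, and in Tbc1d8 with 90.6%, Zfpm1 with 72.9%, Il34 with 62.7% and Slc38a10 with 0.465%. CD11b-positive 4 was the highest in Psmb9 with 2.19%. Among PBS libraries, PBS 1 had the lowest median with 5.71% and the lowest Zfpm1 value with 2.03%, and PBS 2 the highest values in Slc14a2 with 12.1% and Ier3 with 22.9%.

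The calls on 8 Y chromosome genes, which lie outside the tiles, were above every PBS library in CD11b-positive libraries 1 to 4, with 25.04, 41.3, 23.8 and 23.8 per 1000000 autosomal calls. The PBS libraries reached 18.6 at most. The origin of these calls was not tested.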

How the results depend on the processing

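The 0 calls between CD11b-positive and CD11b-negative became 652 with the replicate block (15.4%; 13.6% of all tiles), 953 without library 2 of both groups (22.5%; 20.4%) and 1009 with both changes (23.8%; 21.3%); leaving out 1 library at a time gave 0 to 954, the highest without CD11b-negative 2. The 2 changes that drop library 2 of both groups were chosen after seeing the data. Against PBS, the 1396 calls in CD11b-positive (33.0%, against 36.3% of all tiles) were 62 with the Y calls as a covariate (1.46%, against 0.133%). With a PBS limit of 10% they were 390 (15.6% of 2501 tiles, against 36.3% of all tiles), with a median difference of 0.797 points. Without single libraries they were 1250 to 1439 (29.5 to 34.0%, against 31.3 to 36.9% of all tiles). The 0 calls in CD11b-negative became 54 with the Y calls as a covariate (1.28%, against 0.114% of all tiles). Numbers did not pair treated with PBS libraries by the limit of 0.1, as number 4 correlated at -0.0990 in CD11b-positive and -0.131 in CD11b-negative. Number 2 did correlate with PBS 2, at 0.730 in CD11b-positive and 0.772 in CD11b-negative. PBS mice are not the treated mice, and what the libraries of number 2 share was not tested. The replicate block gave 1396 (33.0%, against 35.2% of all tiles) and 0 calls against PBS. The tile count was 4517 with 5 calls per CpG, 3905 with 20, 4218 with shifted tiles and 3312 beyond 5 kb. Of 59 differences of named tiles, 11 changed sign under at least 1 alternative, 4 of them with a difference of 10 points or more, all with the Y calls as a covariate: Zfp462 against PBS (1.13 points), and against CD11b-negative Tead1 (3.07), Kdr (-2.87) and Atrnl1 (-1.13). The Csgalnact1 tile changed sign with CpGs weighted equally (2.76 points). The cause was not tested. The lowest depth, 30 calls in a tile and library, limits the resolution of single values in the shallowest tiles.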
